A study of Rattus norvegicus with 12 samples.

Results

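The renal cortex expression of 40 genes that define the proximal tubule as an absorbing and metabolising epithelium was followed in rats given bromodichloromethane (BDCM), a chlorination by-product. The genes were chosen by function: endocytic receptors, ion and sulfate transporters with their scaffold, enzymes of amino acid and sugar breakdown, and surface or lysosomal proteins. This choice was made with earlier results of these data known. All array features whose RefSeq accession maps to one of these symbols were taken, which gave 59 features for 39 of the 40 genes. Gldc, a subunit of the glycine cleavage system, was not analysed here. All 39 passed the filter on dim features, which left 34218 features (12208 named genes) to test. A gene with several features is represented by its brightest one on average.

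The animals were 12 male Sprague-Dawley (Crl:CD(SD)) rats, 5 weeks old at purchase, with 1 array per animal and 3 animals in each of 4 groups. Control rats received corn oil for 4 weeks and treated rats BDCM at 200 mg/kg per day for the same time, and the animals were killed 24 h after their final dose. In one experiment (B92) the rats were bled under CO2-O2 (4:1), and in the other (B103) under isoflurane. Between the experiments, anaesthesia, slide and scan day cannot be told apart. Within each experiment, slide and scan day went partly with treatment. All CO2-O2 controls were on slide 1 and scan day 1, but treated CO2-O2 animals 1 and 3 on slide 2 and scan day 2. Isoflurane controls 1 and 2 were on slide 3, and treated isoflurane animal 3 on slide 5 and scan day 4. Values are log2 signals relative to each array's 75th percentile, and an effect is the log2 difference between BDCM and oil animals, with its standard error (SE) from a limma fit to all features. A gene is said to have risen or fallen where its Benjamini-Hochberg adjusted p over all features was under 0.05.

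The proximal tubule takes back most of what the glomerulus filters. Filtered proteins are captured at the brush border by the giant receptors megalin (Lrp2) and cubilin (Cubn) and carried to lysosomes. Salts, organic acids, phosphate, sulfate and water pass through transporters and channels held at the membrane by scaffold proteins, and mitochondria and peroxisomes of the same cells break down amino acids and sugars. Much of this gene set is known to depend on the transcription factors HNF1 and HNF4. BDCM injures rodent kidney, where this segment is the known target.

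The tissue label was borne out by proximal tubule markers, all well above background on 12 of 12 arrays. The phosphate cotransporter Slc34a1 lay between 7.57 and 8.49, the glucose cotransporter Slc5a2 between 6.39 and 7.44, and the organic anion transporter Slc22a6 between 6.26 and 8.27. Each of these markers fell with BDCM, averaged over the 2 experiments. Slc34a1 fell by 0.25 ± 0.07 (adjusted p = 0.0134), Slc5a2 by 0.77 ± 0.07 (1.90e-05) and Slc22a6 by 1.16 ± 0.18 (7.13e-04). Between 67.4 and 72.5% of the probes on an array were well above background, and the number of arrays limits the precision. The arrays lay on 5 slides, of which 2 held both treatments.

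The promoters of the set were searched for known binding motifs of HNF1 and HNF4, as a description. RefSeq promoters (GRCr8, 250 bases before to 50 after the start) were matched for 34 of the 39 genes. The HNF1 half-site GTTAAT, on either strand, was found in 5 of these 34 promoters (14.7%), against 7.37% of all 27457 promoters. The HNF1 palindrome of 13 bases, which contains that half-site, was found in 0 of the 34 and in 1 of all promoters. The HNF4 site CAAAGTCCA was found in 2 of the 34 (5.88%), those of Pdzk1 and Pipox, against 0.375% of all. The 160 bases before the start are shown for Cltrn, which has 2 half-sites and fell, for Miox, which has 1 and fell, for Hpd, which has 1 and rose, and for Pdzk1, whose HNF4 site ends at the last base before the start. They are written 5′ to 3′ on the strand of the gene, with motifs in capitals.
Cltrn (chrX:34027125-34027284, minus strand): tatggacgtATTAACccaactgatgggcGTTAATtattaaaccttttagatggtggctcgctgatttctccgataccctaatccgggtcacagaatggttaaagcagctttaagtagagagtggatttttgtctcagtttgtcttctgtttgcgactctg
Miox (chr7:122284500-122284659, plus strand): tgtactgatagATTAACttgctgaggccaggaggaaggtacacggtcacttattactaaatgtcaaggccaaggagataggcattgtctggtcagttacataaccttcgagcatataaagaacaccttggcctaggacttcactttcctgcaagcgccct
Hpd (chr12:39042086-39042245, plus strand): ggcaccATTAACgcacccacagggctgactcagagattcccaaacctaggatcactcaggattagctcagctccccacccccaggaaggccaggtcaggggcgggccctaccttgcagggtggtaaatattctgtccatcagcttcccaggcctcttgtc
Pdzk1 (chr2:187064835-187064994, plus strand): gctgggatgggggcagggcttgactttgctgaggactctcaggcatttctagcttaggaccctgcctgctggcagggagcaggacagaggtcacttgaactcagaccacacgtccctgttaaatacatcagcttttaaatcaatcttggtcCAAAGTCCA
The other promoters with a half-site were those of Anpep and Slc23a1. A match says only that the letters are there.

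The first question was how BDCM moved the set, taken as the mean of its effects in the 2 experiments (6 animals per treatment). Of the 39 genes 28 fell and 3 rose, while 20.4% of all features fell and 17.7% rose. Those shares are the background for the counts by role class and gene list below, which are also of the mean of both experiments. The median effect over the 39 genes was -0.60 (range -2.41 to 0.95), against -0.04 over all features. The 28 genes that fell were left at 18.9 to 81.5% of the control signal, with a median of 59.6%. Of these, 5 fell at least 2-fold (Anxa13, Aqp1, Slc13a2, Ddc and Dmgdh), where 2.2% of all features did so. The 3 that rose were the phosphate and urate transporters Slc17a1 and Slc17a3 and the tyrosine enzyme Hpd. The 8 genes that did not pass were Slc4a4, Slc13a1, Slc23a1, Gatm, Asl, Pipox, Sardh and Napsa. Cortex RNA is a mixture, so fewer proximal tubule cells and less RNA per cell cannot be told apart.

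**Figure D1:**
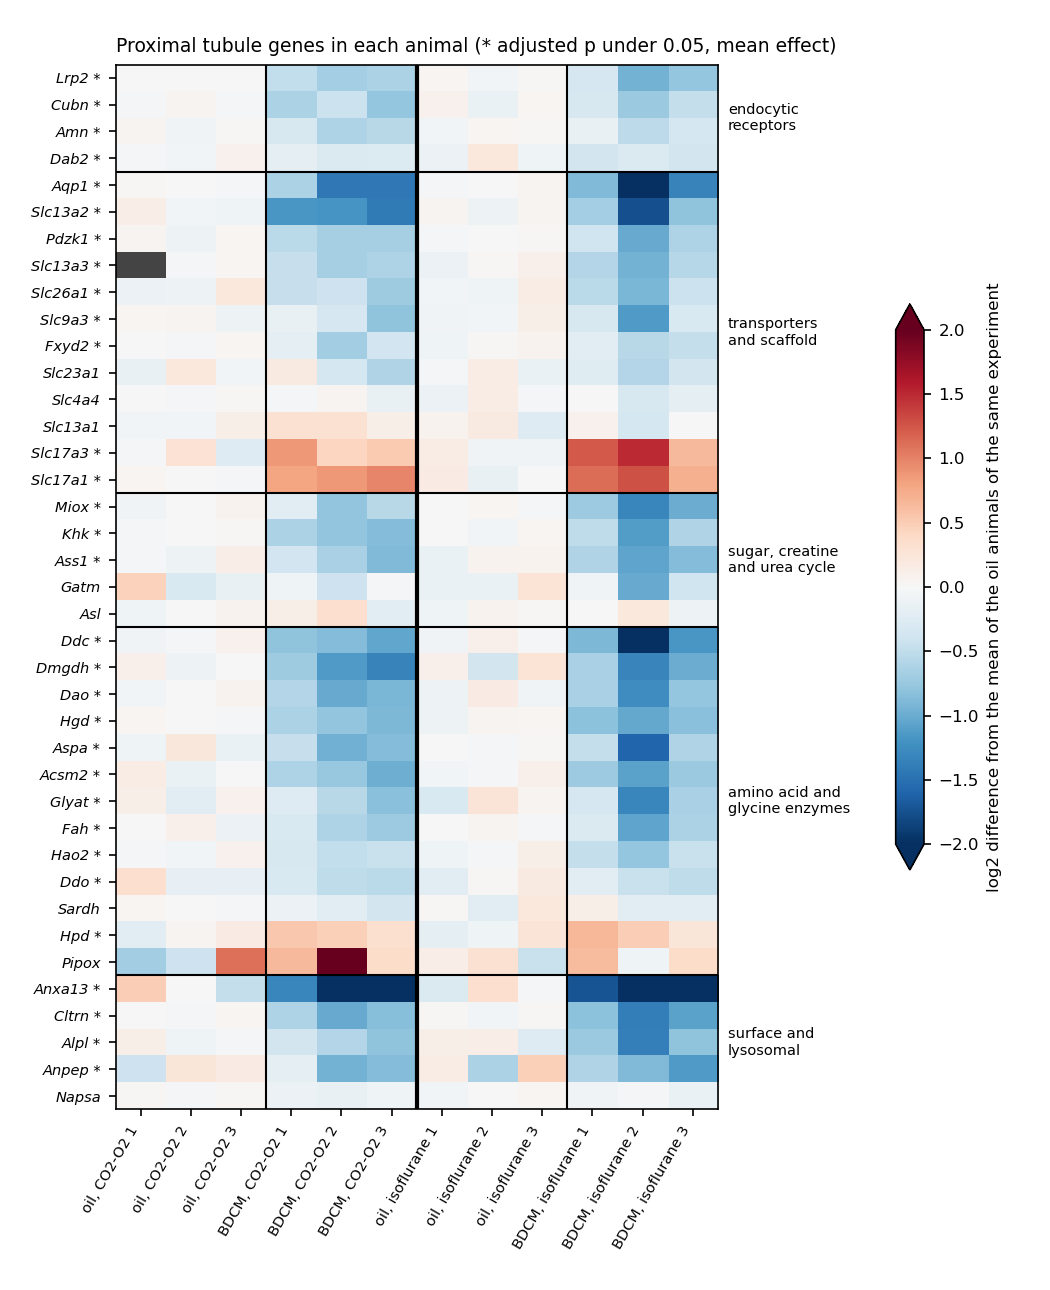
Log2 difference of each gene (rows, grouped by role) in each of the 12 animals (columns) from the mean of the 3 oil animals of the same experiment, with asterisks for adjusted p under 0.05 in the mean of both experiments and a dark cell for 1 missing value of Slc13a3. The 28 genes that fell are blue in all 6 treated animals, and Slc17a1, Slc17a3 and Hpd are red in all 6.

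All treated animals lay below all controls in both experiments for 27 genes, where 13.1% of all features did so. These were all of the 28 that fell except Anpep. All treated animals lay above all controls in both experiments for Slc17a1 and Slc17a3 (13.5% of all features). In each of the 6 treated animals, all 28 fallen genes were below the mean of their own controls, which their choice by the same values largely fixes.

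All 4 genes of the receptor complex for filtered proteins fell in the mean of both experiments, with a median effect of -0.49. Lrp2, megalin, read 6.35, 6.34 and 6.33 in the CO2-O2 controls and 5.85, 5.67 and 5.71 in the treated animals, and 6.54, 6.45 and 6.53 against 6.17, 5.56 and 5.74 under isoflurane (animals 1 to 3 in each case, here and in the sentences that follow). Treated animals were lower without overlap, and the least lowered was isoflurane animal 1. Lrp2 fell by 0.64 ± 0.09, or 1.56-fold (95% confidence interval 1.35 to 1.80) (SE, n = 6 per treatment; limma adjusted p = 4.98e-04).

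Cubn, which binds filtered albumin and transferrin and relies on partners to enter the cell, read 5.47, 5.54 and 5.45 in CO2-O2 controls and 4.85, 5.06 and 4.71 in treated animals. Under isoflurane it read 5.66, 5.43 and 5.61 and 5.25, 4.83 and 5.09. The groups did not overlap, and the treated isoflurane animals spread more widely than their controls. Cubn fell by 0.56 ± 0.09 (adjusted p = 7.25e-04), to 67.7% of control.

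Amn, amnionless, anchors cubilin in the membrane. It read 5.68, 5.55 and 5.65 against 5.30, 5.0 and 5.08 with CO2-O2 and 5.53, 5.63 and 5.61 against 5.45, 5.07 and 5.24 with isoflurane. The closest approach was treated isoflurane animal 1, just under its lowest control. Amn fell by 0.42 ± 0.08 (adjusted p = 0.00197). Its fall in the isoflurane experiment alone (limma adjusted p = 0.0436) did not pass in 15 of 28 alternative fits. Dab2, the adaptor that links megalin to clathrin, fell by 0.29 ± 0.07, the smallest of the 28 falls (adjusted p = 0.00593; 0.116 when slide was fixed in the model, over a range from 7.79e-04). The falls of the receptors, their anchor and their adaptor were thus between 0.29 and 0.64 on the log2 scale.

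Another 35 genes of endocytosis were chosen by function, with earlier results of these data known. Of these 31 were tested, of which 13 fell and 1 rose, with a median of -0.11. The recycling ATPase Ehd1 fell by 0.84 ± 0.08 (adjusted p = 4.04e-05). Tcn2, the vitamin B12 carrier that megalin takes up, fell by 0.82 ± 0.09. The clathrin adaptor subunit Ap2s1 fell by 0.46 ± 0.07, and Lrpap1, the chaperone of megalin, by 0.38 ± 0.07. The gene that rose was Gipc1, a megalin-binding adaptor named after its value was seen (0.32 ± 0.11, adjusted p = 0.0357). No gene of the list rose without the filter on dim probes, when slide, scan day or replicate number was a block, or when CO2-O2 control 2 or 3, treated CO2-O2 animal 1 or 3, isoflurane control 1 or 2 or treated isoflurane animal 2 was left out. The general machinery thus had a smaller share of fallen genes than the receptor complex itself, a difference that was not tested.

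Of the 12 transporters and their scaffold, 7 fell, 2 rose and 3 did not pass (median -0.46), where 20.4% of all features fell and 17.7% rose. The share of the 12 that rose was thus near that of all features. Aqp1, the water channel of the proximal tubule and descending limb, read 6.84, 6.83 and 6.79 in CO2-O2 controls and 6.18, 5.39 and 5.38 in treated animals. Under isoflurane it read 6.64, 6.65 and 6.72 and 5.79, 4.5 and 5.34. Controls were nearly identical, while the treated animals differed among themselves by up to more than a log2 unit, animal 1 of each experiment being the least lowered. Aqp1 fell by 1.31 ± 0.21, or 2.49-fold (95% confidence interval 1.80 to 3.44) (adjusted p = 8.85e-04).

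Slc13a2 carries citrate and other dicarboxylates from the filtrate. It read 5.36, 5.17 and 5.14 against 4.06, 4.04 and 3.81 with CO2-O2, and 5.10, 4.95 and 5.11 against 4.37, 3.30 and 4.25 with isoflurane. All 3 treated CO2-O2 animals were low by a similar amount, and isoflurane animal 2 stood lowest of all. It fell by 1.17 ± 0.16, or 2.25-fold (95% confidence interval 1.74 to 2.89) (adjusted p = 4.16e-04). A further probe of this gene fell by 0.36 ± 0.07 only, while another fell by 1.30 ± 0.17.

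Pdzk1 is the PDZ scaffold that holds several of these transporters at the brush border, and its promoter is shown above. It read 6.37, 6.20 and 6.34 and 5.77, 5.64 and 5.65 in CO2-O2 controls and treated animals, and 6.32, 6.32 and 6.36 and 5.93, 5.33 and 5.71 with isoflurane. Controls and treated animals were separated in both experiments. Pdzk1 fell by 0.65 ± 0.09 (adjusted p = 4.52e-04), to 63.8% of control. Slc13a3, the basolateral dicarboxylate transporter, fell by 0.64 ± 0.09 in a fit with 1 CO2-O2 control left out, whose spot was an outlier. The sulfate exchanger Slc26a1 fell by 0.58 ± 0.10, and Fxyd2, the gamma subunit of the sodium pump, by 0.41 ± 0.09.

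Against this direction stood Slc17a1 and Slc17a3, neighbouring genes of the SLC17 family, which moves phosphate, urate and organic anions. Slc17a1 read 1.87, 1.83 and 1.79 in CO2-O2 controls and 2.62, 2.69 and 2.80 in treated animals, and 1.77, 1.46 and 1.6 against 2.72, 2.89 and 2.32 with isoflurane. Treated animals were higher without overlap. Slc17a1 rose 1.94-fold (95% confidence interval 1.67 to 2.25) (adjusted p = 4.44e-05). Slc17a3 read 4.29, 4.63 and 4.08 against 5.20, 4.77 and 4.86 with CO2-O2 and 4.04, 3.83 and 3.82 against 5.12, 5.39 and 4.54 with isoflurane. The groups did not overlap, although CO2-O2 control 2 came close to treated animal 2. It rose 1.82-fold (95% confidence interval 1.44 to 2.31) (adjusted p = 0.00152).

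**Figure D2:**
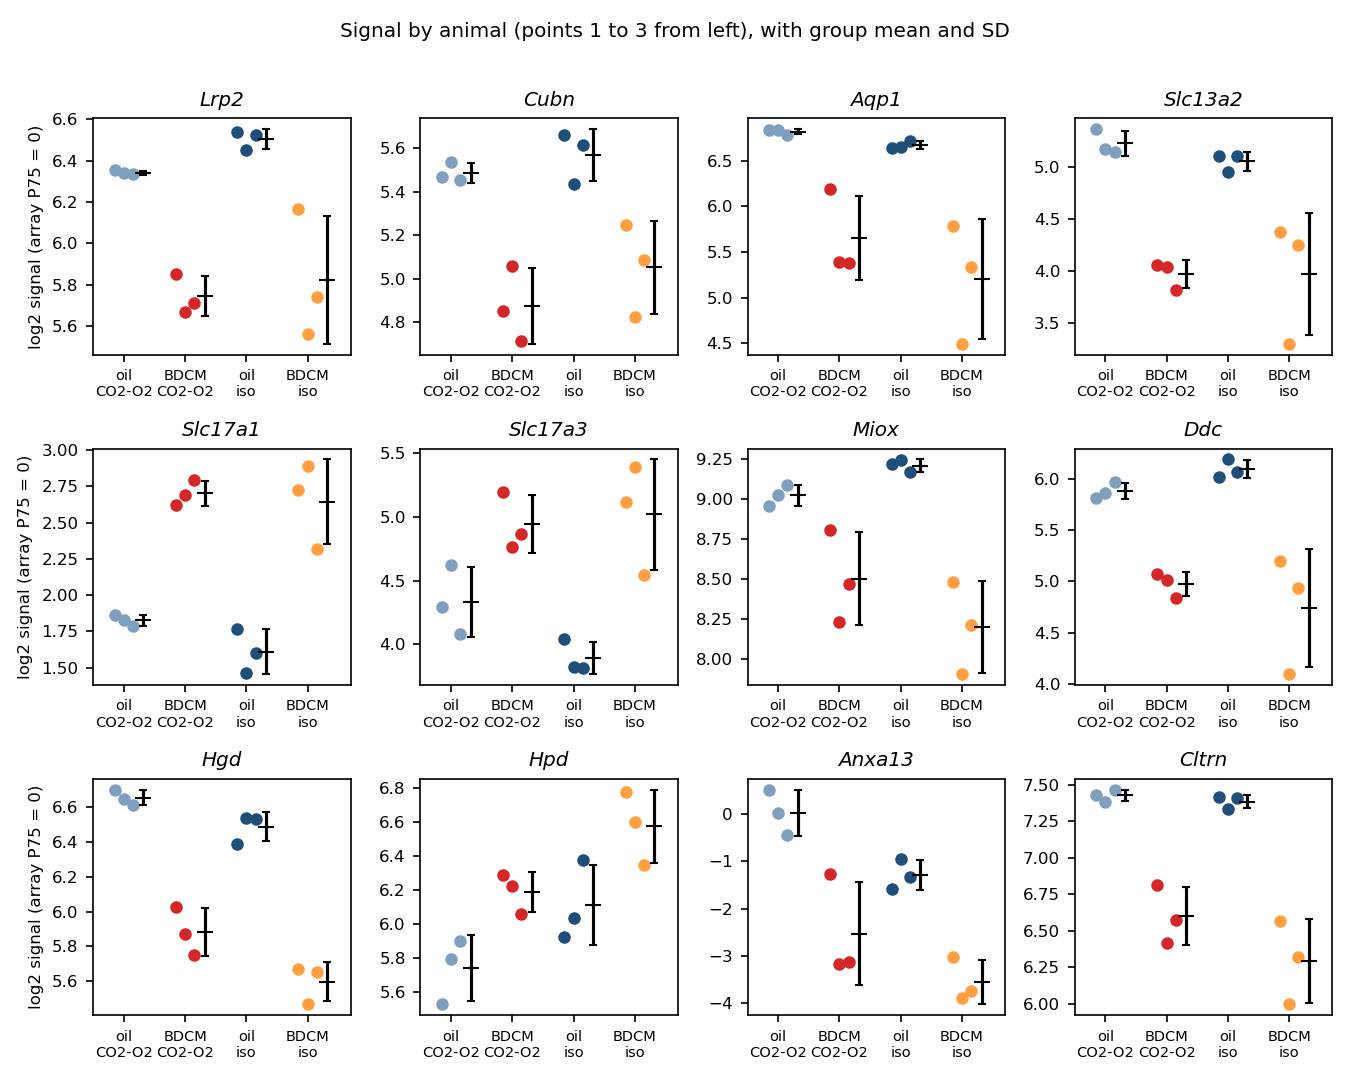
Log2 signal (array 75th percentile at 0) of 12 genes in each animal, with the mean and SD of each group of 3 as a bar beside the points; each panel has its own axis. Groups separate in both experiments for all panels but Hpd, where isoflurane control 3 (6.37) lies just above treated animal 3 (6.35).

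Slc9a3, the sodium-hydrogen exchanger NHE3, was a case where probes differed. The probe used read 0.90, 0.92 and 0.77 and 0.72, 0.52 and 0.06 in CO2-O2 controls and treated animals, and 0.06, 0.08 and 0.25 and -0.18, -1.0 and -0.17 with isoflurane. It was lower in treated animals of each experiment, and lower in isoflurane than in CO2-O2 animals of both treatments. Slc9a3 fell by 0.51 ± 0.16 (adjusted p = 0.0291). Another probe fell by 0.29 ± 0.07 (adjusted p = 0.0109), and one more differed by -0.28 ± 0.15 (adjusted p = 0.172). The call on the probe used did not pass with slide (0.122) or scan day (0.0788) fixed in the model, or without the filter on dim probes (0.0503). It did not pass without CO2-O2 control 1 (0.0568) or 2 (0.0589), treated CO2-O2 animal 3 (0.0622) or isoflurane control 3 (0.0631), over a range from 0.00807.

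Slc13a1, the renal sulfate cotransporter, read 4.35, 4.35 and 4.53 and 4.71, 4.72 and 4.53 with CO2-O2 and 4.32, 4.43 and 3.99 and 4.33, 3.89 and 4.25 with isoflurane. Its groups overlapped in both experiments. The effect was 0.08 ± 0.10 on the probe used (adjusted p = 0.582), 0.14 ± 0.09 on another and 0.27 ± 0.09 on the dimmest (adjusted p = 0.0444). The sodium bicarbonate cotransporter Slc4a4 differed by -0.10 ± 0.07 (95% limits of a fold decrease 0.962 to 1.20), and passed with quantile scaling, alone (0.0300) or after normexp (0.0432), its highest value being 0.835. For the ascorbate transporter Slc23a1 the value was -0.33 ± 0.13 (adjusted p = 0.0734; 0.0388 with normexp and quantile scaling, 0.00745 without treated CO2-O2 animal 1 and at most 0.317).

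Among 41 other proximal tubule transporters, 40 were tested, of which 30 fell and 1 rose (median -0.44). The lactate transporter Slc5a8 fell by 2.04 ± 0.29, the organic cation transporter Slc22a2 by 1.67 ± 0.25, the peptide transporter Slc15a2 by 1.36 ± 0.19 and the GABA and taurine transporter Slc6a13 by 1.33 ± 0.22. The gene that rose, named after its value was seen, was the basolateral glucose transporter Slc2a2 (1.03 ± 0.09, adjusted p = 2.06e-05). Several of the 40 were chosen with their values known. Most transporters of both lists thus fell, but a list chosen in part with its values known gives no independent support to the 12 described here.

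The enzymes of sugar, creatine and urea cycle metabolism were split: 3 of 5 fell and 2 did not pass (median -0.74). Miox, myo-inositol oxygenase, starts inositol breakdown in kidney and is largely limited to this segment. It read 8.96, 9.02 and 9.09 and 8.80, 8.23 and 8.47 in CO2-O2 controls and treated animals, and 9.22, 9.24 and 9.16 and 8.48, 7.91 and 8.21 with isoflurane. The groups were separated in both experiments, least so for treated CO2-O2 animal 1. Miox fell by 0.76 ± 0.11 (adjusted p = 5.61e-04) on this probe, and by 1.59 ± 0.18 on its other probe.

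Khk, ketohexokinase, phosphorylates fructose. It read 7.91, 7.94 and 7.96 against 7.31, 7.15 and 7.07 with CO2-O2 and 7.87, 7.81 and 7.90 against 7.34, 6.73 and 7.25 with isoflurane. The controls lay close together and all treated animals below them. Khk fell by 0.75 ± 0.10 (adjusted p = 2.64e-04). Ass1, which joins citrulline and aspartate in the renal synthesis of arginine, read 5.91, 5.84 and 6.07 and 5.56, 5.29 and 5.06 with CO2-O2 and 6.16, 6.37 and 6.36 and 5.69, 5.24 and 5.43 with isoflurane. Treated animals were lower without overlap in both experiments. It fell by 0.74 ± 0.10 (adjusted p = 4.16e-04).

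Asl, the next enzyme of arginine synthesis, differed by 0.06 ± 0.09 (adjusted p = 0.671; 95% limits 0.898 to 1.20-fold), and its sign turned to -0.04 with quantile scaling and -0.13 with normexp and quantile scaling. The consecutive enzymes Ass1 and Asl thus gave a fall and no call, and their difference was not tested. Gatm, the first enzyme of creatine synthesis, read 5.52, 4.76 and 4.92 and 4.99, 4.66 and 5.03 with CO2-O2 and 4.55, 4.54 and 4.95 and 4.61, 3.68 and 4.29 with isoflurane. Its groups overlapped, CO2-O2 control 1 being highest. The effect was -0.33 ± 0.18 (adjusted p = 0.177) on this probe, whereas the second probe fell by 0.54 ± 0.18 (adjusted p = 0.0392).

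Among the 13 measured enzymes of amino acid, glycine and acyl-glycine metabolism 10 fell, 1 rose and 2 did not pass (median -0.66). Ddc, which makes dopamine from filtered L-DOPA in the proximal tubule, read 5.81, 5.86 and 5.97 in CO2-O2 controls and 5.07, 5.01 and 4.84 in treated animals. With isoflurane it read 6.02, 6.19 and 6.07 and 5.20, 4.10 and 4.93. All treated animals were below all controls, and isoflurane animal 2 stood lowest. Ddc fell by 1.13 ± 0.16, or 2.19-fold (95% confidence interval 1.71 to 2.79) (adjusted p = 4.19e-04).

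Dmgdh removes a methyl group from dimethylglycine in mitochondria, after Bhmt and before Sardh on the way from choline to glycine. It read 1.82, 1.62 and 1.73 and 1.01, 0.59 and 0.39 with CO2-O2 and 1.77, 1.31 and 1.94 and 1.02, 0.36 and 0.68 with isoflurane. The groups did not overlap, and isoflurane control 2 was lowest among controls. Dmgdh fell 2.03-fold (95% confidence interval 1.61 to 2.57) (adjusted p = 5.78e-04). Sardh, the following step, differed by -0.17 ± 0.09 (adjusted p = 0.174).

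Dao, the peroxisomal D-amino acid oxidase, read 5.81, 5.86 and 5.93 and 5.27, 4.85 and 4.95 with CO2-O2 and 5.41, 5.68 and 5.43 and 4.86, 4.26 and 4.74 with isoflurane. Treated animals were lower without overlap, isoflurane animal 2 lowest. Dao fell by 0.86 ± 0.11 (adjusted p = 2.77e-04). Ddo, its counterpart for D-aspartate, fell by 0.42 ± 0.11 (adjusted p = 0.0129; 0.0673 with slide and 0.0644 with scan day fixed, range from 0.0103).

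Tyrosine breakdown runs through Hpd, Hgd, Gstz1 and Fah, and its members differed in direction. Hpd, which makes homogentisate, read 5.53, 5.79 and 5.90 and 6.29, 6.22 and 6.06 with CO2-O2 and 5.93, 6.03 and 6.37 and 6.78, 6.60 and 6.35 with isoflurane. Treated animals were higher in the CO2-O2 experiment without overlap, and overlapped with isoflurane control 3. Hpd rose 1.37-fold (95% confidence interval 1.16 to 1.62) (adjusted p = 0.00757; 0.0549 with normexp and quantile scaling and 0.0620 with slide fixed, range from 0.00397). Hgd, which opens the ring of homogentisate, fell by 0.83 ± 0.07, and its adjusted p of 6.80e-06 was the lowest of the 39. Fah, the last enzyme, fell by 0.60 ± 0.12 (adjusted p = 0.00354; 0.0732 with slide fixed, range from 5.92e-04). Liver also makes these enzymes, and the liver transcript albumin (Alb) varied between animals. The 2 isoflurane animals with the most Alb were treated animal 1 (-0.69) and control 3 (-2.97), which also had the highest Hpd of their groups. Without both, an alternative chosen after seeing the data, Hpd rose by 0.47 (adjusted p = 0.00740). The CO2-O2 animals, with Alb between -1.44 and 1.66, stayed in that fit. The part of liver transcripts in the rise of Hpd was not tested.

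Acsm2, which activates medium-chain acids for glycine conjugation in mitochondria, fell by 0.81 ± 0.09 (adjusted p = 8.21e-05), Aspa, which cleaves N-acetylaspartate, by 0.83 ± 0.18, and Hao2, a peroxisomal hydroxyacid oxidase, by 0.50 ± 0.07. Glyat, which joins glycine to such acids, fell by 0.66 ± 0.17 (adjusted p = 0.0133; 0.126 with slide and 0.0625 with scan day fixed, range from 0.00114). Acsm and Glyat have near copies that a probe could share. Pipox, the peroxisomal pipecolate and sarcosine oxidase, ranged from -1.96 to -0.16 in CO2-O2 controls and from -0.90 to 0.80 in treated animals. It differed by 0.66 ± 0.37 (adjusted p = 0.186; 0.0439 without CO2-O2 control 3, and at most 0.442). Its groups overlapped in both experiments, and its CO2-O2 controls had the widest spread of the 39 genes.

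Among 54 other enzymes of amino acid and sugar breakdown, 51 were tested, of which 35 fell and 2 rose (median -0.55). Agmatinase (Agmat) fell by 1.46 ± 0.14 (adjusted p = 3.38e-05), Bhmt, which makes dimethylglycine, by 1.40 ± 0.20, Haao by 1.33 ± 0.15 and Acmsd, the next kynurenine pathway enzyme, by 1.19 ± 0.13. Partners of the genes above were named for their place in a pathway, with earlier results known. Gamt, which completes creatine synthesis after Gatm, fell by 0.82 ± 0.12. The glycine cleavage subunits Gcsh and Amt fell by 0.77 ± 0.07 and 0.58 ± 0.10, while Dld, which other complexes share, differed by -0.15 ± 0.07 (adjusted p = 0.115). In fructose breakdown Tkfc fell by 0.84 ± 0.10. In tyrosine breakdown Gstz1 differed by 0.03 ± 0.12 (adjusted p = 0.848). Falls thus stood beside enzymes of the same route that gave no call.

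Of the 5 surface and lysosomal genes 4 fell and 1 did not pass (median -0.78). Anxa13, an annexin of epithelial membranes, read 0.51, 0.02 and -0.46 and -1.28, -3.18 and -3.13 with CO2-O2 and -1.58, -0.96 and -1.34 and -3.01, -3.89 and -3.75 with isoflurane. Isoflurane controls were already lower than CO2-O2 controls, by 1.32 ± 0.48 (adjusted p = 0.108), and treated animals were lower still in both experiments without overlap. Anxa13 fell by 2.41 ± 0.34, or 5.30-fold (95% confidence interval 3.14 to 8.93) (adjusted p = 4.18e-04), the largest fall of the 39 genes.

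Cltrn, collectrin, is needed to bring neutral amino acid transporters to the brush border. It read 7.43, 7.39 and 7.47 in CO2-O2 controls and 6.81, 6.42 and 6.57 in treated animals, and 7.41, 7.33 and 7.41 against 6.57, 6.0 and 6.32 with isoflurane. Controls of both experiments were close to one another, and all treated animals lay well below them. Cltrn fell by 0.96 ± 0.10 (adjusted p = 5.08e-05), and its second probe by 0.96 ± 0.10. Alpl, tissue-nonspecific alkaline phosphatase, read 4.20, 4.00 and 4.06 and 3.71, 3.50 and 3.28 with CO2-O2 and 4.19, 4.20 and 3.81 and 3.33, 2.69 and 3.26 with isoflurane. The groups were separated in both experiments. Alpl fell by 0.78 ± 0.13 (adjusted p = 0.00102).

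Anpep, the aminopeptidase N of the brush border, fell by 0.76 ± 0.22 (adjusted p = 0.0196), with overlap in both experiments. Its call did not pass with scan day fixed (0.0552) or with the replicate block (0.0583), over a range from 0.00434. Napsa, a lysosomal aspartic protease, differed by -0.10 ± 0.04 (adjusted p = 0.104), and passed with quantile scaling (5.07e-04; 3.37e-04 after normexp) and with an eBayes trend (0.0387), its highest value being 0.328. Among 20 other brush border genes 18 were tested, of which 11 fell and 0 rose (median -0.60). The metalloproteases Mep1b, Mme and Mep1a fell by 1.20 ± 0.24, 1.08 ± 0.20 and 0.98 ± 0.12.

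**Figure D3:**
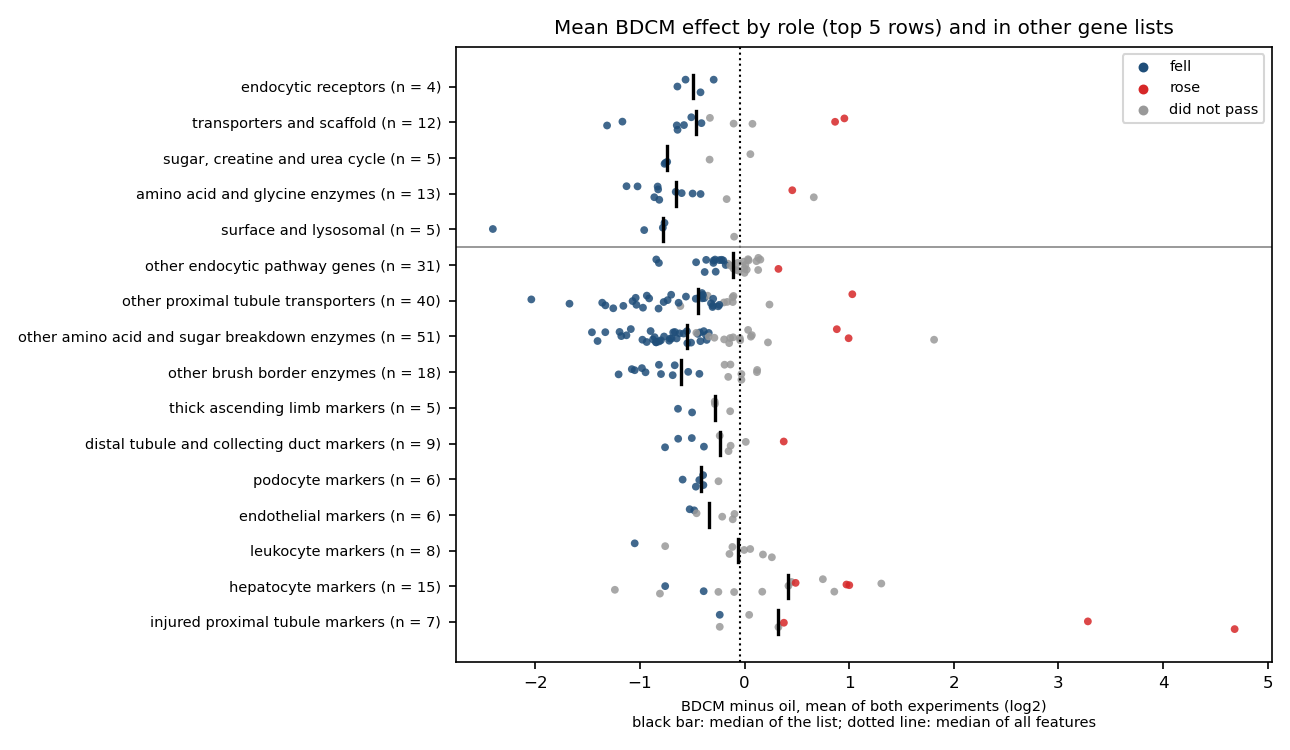
Mean BDCM effect (log2, x axis) of each gene, with 1 row per role class of the 39 genes (top 5 rows) and per other gene list, a black bar at the median of the row and a dotted line at the median of all features (-0.04). Medians of the role classes lie between -0.78 and -0.46, and of the 7 injury markers (median 0.32) 3 rose, among them Havcr1 (4.69) and Spp1 (3.28) at the far right, and 1 fell.

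Markers of other kidney cells were counted in the same way, beside the 20.4% of all features that fell and the 17.7% that rose. Of the podocyte markers 5 of 6 fell (median -0.41, Wt1 by 0.59 ± 0.10). Of the thick ascending limb markers 2 of 5 fell (median -0.28), Cldn10 by 0.64 ± 0.15 and Egf by 0.50 ± 0.13. Cldn10 is not limited to that segment, since proximal tubule also makes an isoform of it. Of the distal tubule and collecting duct markers 4 of 9 fell and 1 rose (median -0.24, Aqp3 by 0.76 ± 0.14). Of the endothelial markers 2 of 6 fell (median -0.34, Tek by 0.52 ± 0.14). The summed linear signal of the podocyte list, in units of the array's 75th percentile, was 32.5 to 42.5 and 34.1 to 39 in the CO2-O2 and isoflurane controls, and 25.9 to 31.7 and 22.9 to 29.1 in the treated animals. For the thick ascending limb it was 568 to 603 and 499 to 556 in controls, and 488 to 588 and 436 to 463 in treated animals. Leukocyte markers gave 1 fall in 8 (Cd74, by 1.05 ± 0.18; median -0.06), with sums of 121 to 136 and 115 to 144 in controls and 100.1 to 148 and 88.8 to 119 in treated animals. With 5 to 9 tested genes per list, these counts are small, and no list was tested against the background. Pvalb was well above background on 0 arrays, and all podocyte and endothelial markers on all 12. The part of the cell mixture in the falls was not tested.

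Hepatocyte markers gave 2 falls and 3 rises in 15 (median 0.42), counts near those background shares, among them Tf, which rose by 1.00 ± 0.18, and Serpinc1, which fell by 0.76 ± 0.09. Without these, which carried most of the signal, their sum was 4.25 to 21.0 and 3.14 to 10.5 in the CO2-O2 and isoflurane controls, and 9.26 to 10.4 and 2.16 to 4.96 in treated animals. Alb was well above background in 1 of 3 animals in each isoflurane group. Without the 2 isoflurane animals highest in Alb, 28 of the 39 genes fell and 3 rose. No share of all features is given for that fit, and the part of liver transcripts in these calls was not tested. The CO2-O2 animals, with Alb between -1.44 and 1.66, stayed in that fit.

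The next question was whether the response was alike in both experiments. With CO2-O2, 20 of the 39 genes fell and 1 rose (Slc17a1), where 9.89% of all features fell and 10% rose (19.9% in either direction). With isoflurane 25 fell and 3 rose, where 12.9% and 13.2% did (26.1% in all). Among those 3, the isoflurane rise of Hpd (limma adjusted p = 0.0470) did not pass in 18 of 28 alternative fits. At least 2-fold falls numbered 4 with CO2-O2 (1.63% of all features) and 6 with isoflurane (2.65%). The CO2-O2 count of 20 was 12 without control 3 and 13 without treated animal 3, and the count of 1 was 2 without isoflurane control 3, isoflurane treated animal 2 or isoflurane treated animal 3. With slide held fixed, fewer of the 39 genes fell in each experiment, but 1 treated animal then carries the CO2-O2 effect and 1 control the isoflurane effect. The shares of all features above belong to the main fit, and none is given for the fits with an animal left out or slide fixed. All 20 were among the 25. The other 5 of the 25 were Dab2, Fxyd2, Fah, Glyat and Aspa, and Slc9a3, Ddo and Anpep fell in the mean of both alone.

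The difference between the 2 effects passed for 0 of the 39 genes, as for 0 of all 34218 features (0%), with 0 of 39 and 1731 of all at an unadjusted p under 0.05. The lowest unadjusted p of the 39 was that of Miox (0.0562), whose effect was -0.52 with CO2-O2 and -1.01 with isoflurane. Aqp1 gave -1.17 and -1.46, Lrp2 -0.60 and -0.68, and Hgd -0.77 and -0.89. The effect had the same sign in both experiments for 38 genes, all but Slc13a1 (0.24 and -0.09). It was the lower with isoflurane for 26 of the 39. The experiments had separate controls, and over the 39 genes, which are not independent replicates, their effects had a Pearson r of 0.93 (0.92 over 38 without Anxa13) and a Spearman rho of 0.93.

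**Figure D4:**
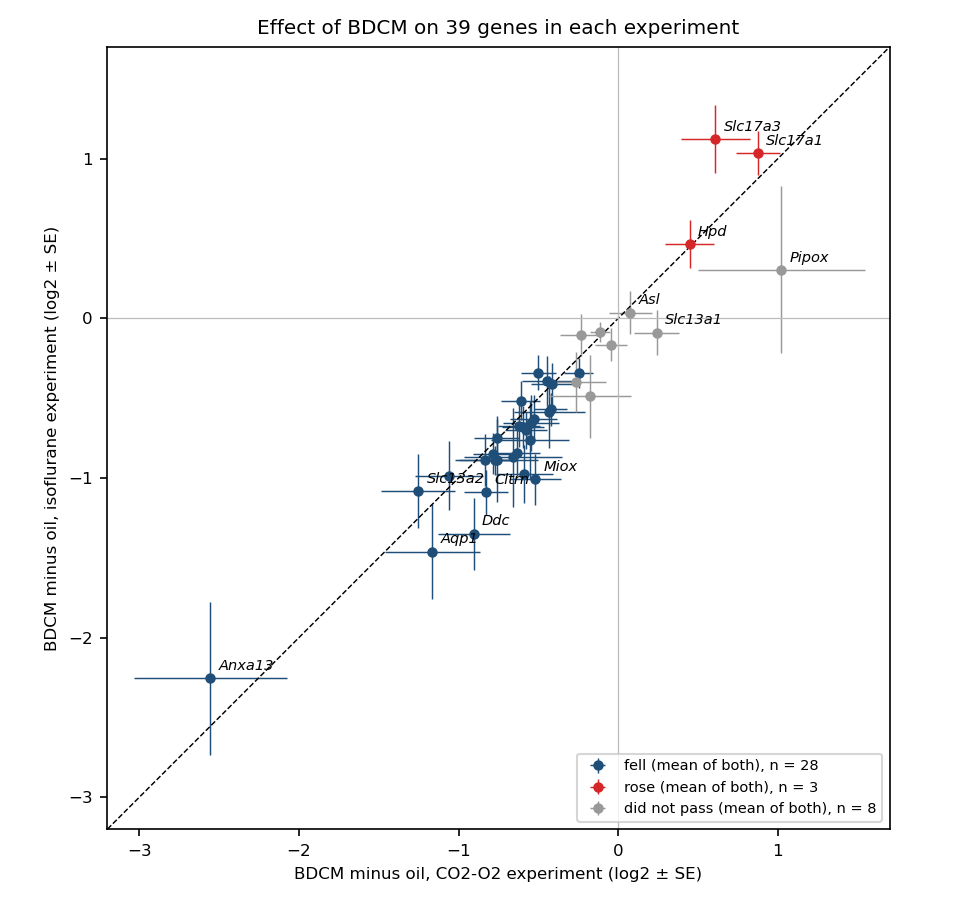
BDCM effect with CO2-O2 (x axis) and with isoflurane (y axis) for the 39 genes, in log2 with standard errors and a dashed line of equal effects. Points lie along the line from Anxa13 (-2.55 and -2.26) to Slc17a1 (0.88 and 1.03), and Slc13a1 alone has effects of opposite sign.

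Between the oil groups, which compare the experiments without BDCM, 0 of the 39 genes passed, where 11.1% of all features did (3.56% lower and 7.53% higher under isoflurane), and 7 of the 39 had an unadjusted p under 0.05, as did 9151 of all 34218 features. The lowest adjusted p was that of Slc9a3 (0.0653), lower under isoflurane by 0.73 ± 0.23 on the probe used, while another of its probes was higher by 0.45 (adjusted p = 0.0226). Napsa was higher under isoflurane by 0.20 ± 0.06 (adjusted p = 0.0690). Under some alternatives 1 to 5 of the 39 passed, and 1 did so without treated CO2-O2 animal 1 or 3 or treated isoflurane animal 2.

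Treated animals varied more than controls, as a description with no test. The SD within a group had a median over the 39 genes of 0.103 in oil groups and 0.216 in BDCM groups. Treated CO2-O2 animals lay on slides 1 and 2 (scan days 1 and 2) and treated isoflurane animals on slides 4 and 5 (scan days 3 and 4). CO2-O2 controls lay on slide 1 (scan day 1) and isoflurane controls on slides 3 and 4 (scan day 3). Spread between animals thus cannot be told apart from spread between slides or scan days. In the CO2-O2 experiment treated animal 1 had the highest signal of the 3 for 26 of the 28 fallen genes, with a median difference from controls of -0.46, against -0.68 and -0.82 in animals 2 and 3. In the isoflurane experiment animal 1 was highest for 23 of the 28 and animal 2 lowest for 25, with medians of -0.57, -1.06 and -0.70 in animals 1 to 3. The 28 genes share each animal's array and were called with these same animals, so they are not separate observations. No share of all features is given for these counts. Of 7 tested markers of the injured proximal tubule 3 rose (Havcr1, Spp1 and Krt18), 1 fell (Vim, by 0.24 ± 0.08, adjusted p = 0.0422) and 3 did not pass, with a median of 0.32. Havcr1, the one with the largest change, rose 25.7-fold over both experiments and was lowest among treated animals in the same pair, at -0.63 against 1.04 and 1.20 with CO2-O2 and at -2.22 against 0.64 and 0.09 with isoflurane. Controls lay between -5.19 and -3.63.

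**Figure D5:**
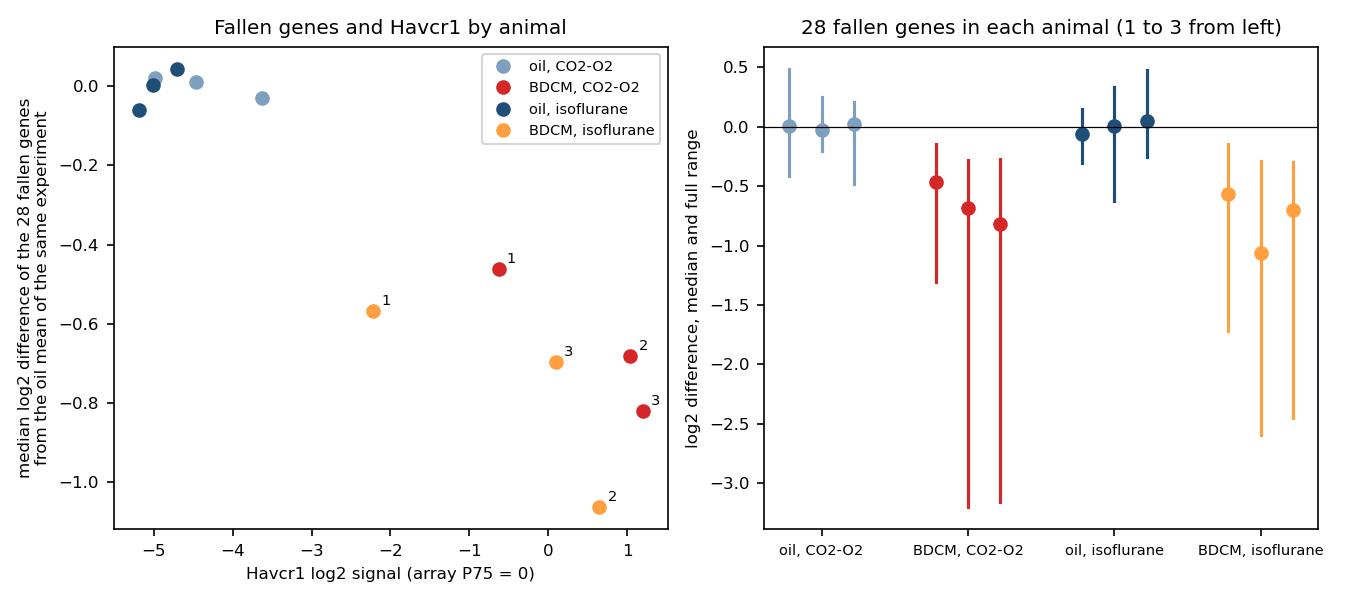
Left, median log2 difference of the 28 fallen genes from their own controls against the Havcr1 signal, 1 point per animal with treated animals numbered; right, median and full range of the 28 genes in each animal. Treated medians run from -0.46 to -1.06 and control medians from -0.06 to 0.04.

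Signals within a slide are given as a description, since the fallen and risen genes were called with these same animals. On slide 1, treated CO2-O2 animal 2 lay with all 3 CO2-O2 controls, and all 28 fallen genes were lower and the 3 risen genes higher in it, with a median of -0.61 over the 39. On slide 4, treated isoflurane animals 1 and 2 lay with isoflurane control 3. There 28 of 28 were lower and 3 of 3 higher, with a median of -0.80. With slide held fixed in the fit, fewer of the 39 genes fell, in each experiment and in their mean. In that fit 1 treated animal carries the CO2-O2 effect and 1 control the isoflurane effect. No share of all features is given for it, so its counts have no background beside them.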

How the data were processed

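Cy3-labelled renal cortex RNA of 12 rats was measured on 1-colour Agilent arrays. Each scanner file gives an intensity per spot, deposited by the authors as processed by Agilent Feature Extraction (10.7 in the submitters' processing notes, build 10.7.1.1 in the headers) after background subtraction. In the deposited value table each entry is a ratio of the processed signal to its array's 75th percentile. Its 6 CO2-O2 columns each equal another animal of the same group, so animals were numbered by their scanner files. Scale and direction are thus known, and the columns are not centred (medians 0.0999 to 0.112).

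Probes were named through RefSeq accessions (GRCr8 gene table; array annotation on rn4). Log2 processed signals minus the 75th percentile entered a limma model (version 3.58.1, R 4.3.3) with 1 mean per group, after removing outlier spots (54 values) and dropping features that no group showed well above background in all 3 of its animals. Benjamini-Hochberg adjustment ran over 34218 features. Effects were taken within each experiment, averaged and subtracted, and the 2 oil groups were compared. Steps were tested on simulated data.

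Genes and lists were chosen with earlier results of these data known. Values by animal are given for the 3 largest called effects per role class and direction and for genes whose probes disagree, and up to 4 called genes per other list are named. A few genes of these lists are not reported here. Alternatives changed scaling (quantile, median), background correction (normexp, offset 50, on median spot signals), filter, probe choice, model, blocks, threshold, and left out each animal. Same-numbered animals of the 2 treatments did not deviate together, so the numbers do not pair them. Tables and figures were made with pandas 2.3.3 and matplotlib 3.10.9 in Python 3.11.15.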

Additional observations from a re-analysis of the deposited data

How the results depend on the processing

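In the mean of both experiments the counts of 28 fallen and 3 risen genes stayed within 1.5 times under every alternative but the 2-fold threshold, which left 5 and 0 (leave-one-out ranges 27 to 29 and 3 to 4). The CO2-O2 count of 20 fallen was 5 with slide and 9 with scan day held fixed, 10 at an adjusted p under 0.01, 4 with the 2-fold threshold and 12 to 24 with 1 animal left out. The isoflurane count of 25 was 6 with slide held fixed, 6 with the 2-fold threshold and 20 to 26 with 1 animal left out. With slide fixed, 1 treated animal carries the CO2-O2 effect and 1 control the isoflurane effect. No share of all features is given beside the counts from fits with a fixed block. The CO2-O2 count of 1 risen was 2 with an eBayes trend, 2 without both isoflurane animals with the most Alb (chosen after seeing the data), 0 with the 2-fold threshold and 1 to 2 with 1 animal left out. Between control groups the count of 0 was 1 with median scaling, 1 with a trend, 5 with array weights, 3 with groups compared alone and 0 to 1 with 1 animal left out. Median scaling moved the median of all features in that contrast by -0.109, and its calls over all features from 2576 higher and 1219 lower to 1572 and 2587. With the replicate number as a block, 27 genes fell and 3 rose in the mean, 15 fell with CO2-O2 and 20 with isoflurane. Same-numbered oil and BDCM animals had correlations of -0.024 to 0.054 in their deviations, so the numbers pair nothing. Fixed blocks gave no control contrast, and groups compared alone no mean or difference.

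Among the 39 genes signs turned only where there was no call. For Asl the mean effect was -0.039 with quantile scaling, -0.127 with normexp and quantile scaling, -0.0034 with array weights and -0.0069 to 0.129 with 1 animal left out. Its CO2-O2 effect was -0.103 with normexp and -0.050 to 0.22 with 1 animal left out. Its isoflurane effect was -0.095 with quantile scaling, -0.150 with normexp, -0.016 with array weights and -0.049 to 0.102 with 1 animal left out. The CO2-O2 effect of Slc4a4 was 0.056 with slide or scan day fixed and -0.092 to 0.013 with 1 animal left out, and that of Gatm -0.330 to 0.049. For Slc13a1 the mean was -0.032 without both animals with the most Alb, and the isoflurane effect 0.045 with the mean of probes, 0.124 with slide fixed and -0.219 to 0.043 with 1 animal left out. The isoflurane effect of Pipox was -0.084 without both animals with the most Alb. In the cases that moved, the cause was not tested.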

Other observations

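A few genes of the same lists ran against the common fall, and were picked out here after their values were seen. The glucose transporter Slc2a2 rose by 1.03 ± 0.09, and Acsm1, a relative of Acsm2, by 0.88 ± 0.12 (adjusted p = 3.28e-04), while Acsm2 itself fell by 0.81 ± 0.09. Acsm5 differed by 1.81 ± 0.71 (adjusted p = 0.0673).

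Slc17a1 and Slc17a3 are followed in RefSeq's GRCr8 order by Slc17a2, another family member. It differed by -0.30 ± 0.12 (adjusted p = 0.0837), with -0.43 in the CO2-O2 and -0.16 in the isoflurane experiment, opposite in sign to its risen neighbours. The difference between the neighbours was not tested.

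Probes of 1 gene gave different sizes of fall for Miox (0.76 and 1.59) and Slc13a2 (1.17, 1.30 and 0.36). With every probe as its own feature, 41 of the 59 features of the 39 genes fell and 4 rose. Of these genes 16 had several features, so these are not counts of separate genes. The shares over all features in that fit are not given here.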
